A study of Mus musculus with 14 samples.

Results

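The autophagy and mitophagy genes described here are 40 genes of the machinery by which cells degrade their own content, and their values were taken from all probe sets that the platform annotation assigns to 1 of them alone. This gave 91 of the 45037 probe sets tested on the Affymetrix mouse arrays, for 39 of the 40 genes. Bnip3l, a mitophagy receptor best known from reticulocytes, has no value, because each of the 3 probe sets that name it names another gene as well. All RNA came from bone marrow of wild-type C57Bl/6 female mice aged 8 to 12 weeks, expanded in culture. Stage E2 cells, labelled proerythroblasts, were taken at day 3.5 by depletion of lineage-positive and of Kit-positive cells and selection for CD71. Stage E1 cells, labelled CFUe-like progenitors, were taken at day 3 by depletion of lineage-positive cells and selection for Kit and CD71. Cytokines were withdrawn from both for 5.5 h. EPO was then added at 4 U/mL to one set of cultures for 90 min, and the other set received none. There were 3 arrays of stage E2 with EPO and 3 without, and 4 arrays of stage E1 with EPO and 4 without, 14 in all, described by the submitters as biological replicates.

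Autophagy encloses cytoplasm in a double membrane that grows from a small cup, closes and fuses with the lysosome, where the content is degraded. A kinase complex around ULK1 starts the cup, a lipid kinase complex around beclin 1 marks it, and a ubiquitin-like conjugation system attaches the LC3 and GABARAP proteins to its membrane. Cargo receptors bind these proteins, and mitophagy is the branch in which the cargo is the mitochondrion. Red cell precursors are known for this branch, since they lose their mitochondria before they become erythrocytes, and erythropoietin (EPO) is the cytokine on which their early survival depends.

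The deposited values are GC-RMA values on a log scale, taken as base 2, from which 1 constant per probe set had been subtracted. A value of a gene is therefore read only against the same probe set on other arrays, levels of different genes cannot be compared, and no gene can be called absent. Differences are given as log2 changes with their standard error, as 1.77 ± 0.28, and also as folds, and a probe set was called higher or lower where the Benjamini-Hochberg adjusted p from limma, over all 45037 probe sets, was under 0.05. A gene with several probe sets is represented by its most variable probe set over the 14 arrays (highest SD), unless another is named. That choice can favour the probe set that moved most. The median SD of a probe set within a group was 0.0343 (with EPO) and 0.0317 (without EPO) in stage E2, and 0.0729 (with EPO) and 0.0934 (without EPO) in stage E1. Each array is a pool of many cells, in which fewer cells of a type and less RNA per cell cannot be told apart.

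The stages differed widely in these genes. In stage E2 against stage E1, 43 of the 91 probe sets were higher and 6 lower with EPO, beside 10.3% and 12.0% of all probe sets tested, and 42 were higher and 5 lower without EPO, beside 10.1% and 10.8%. These shares amount to 47.3% higher and 6.59% lower with EPO, and 46.2% higher and 5.49% lower without EPO. The calls fell on 23 genes higher and 5 lower with EPO and on 23 higher and 4 lower without EPO, and no gene had calls in both directions. A gene is counted there if any of its probe sets passed, which favours genes with many. By representative probe set, 22 of 39 genes were higher and 5 lower with EPO, beside 13.2% and 15.0% of all genes. Without EPO, 23 were higher and 4 lower, beside 13.4% and 13.8%. The same 39 probe sets were higher and the same 4 lower in both comparisons, which share no arrays but share 1 estimate of the spread. The median change of the 91 probe sets was 0.48 with EPO and 0.43 without EPO, while the median over all probe sets was -0.03 in both. The tested probe sets include those of genes that these cells may not express, and no filter on low levels could be applied.

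**Figure D1:**
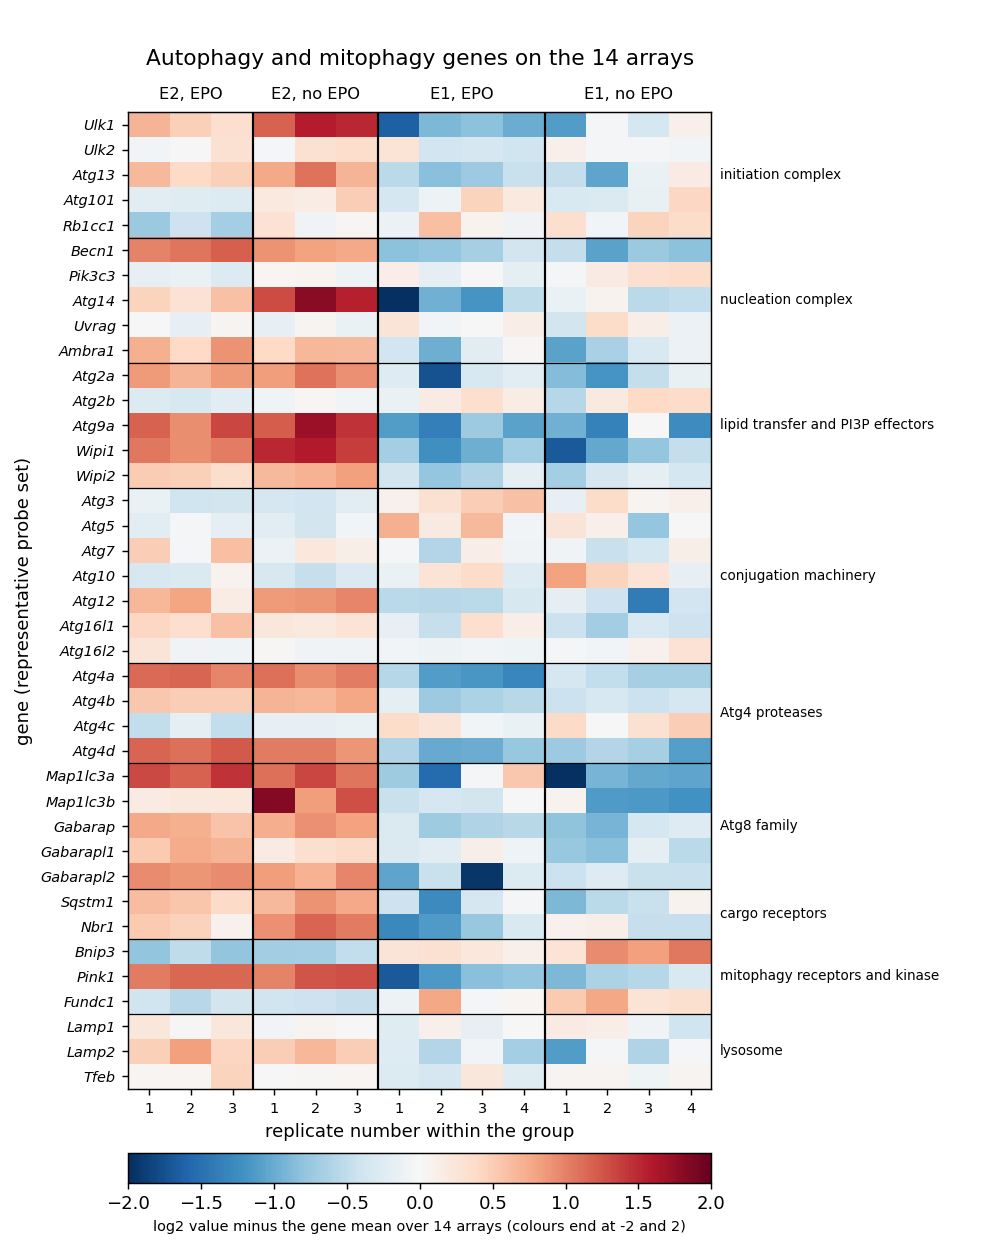
Log2 value of the representative probe set of each of the 39 genes, minus its mean over the 14 arrays (colour, ending at -2 and 2), by array (columns, grouped by stage and EPO) and by role (rows). Most genes are red on the 6 arrays of stage E2 and blue on the 8 of stage E1. Bnip3, Fundc1, Atg3 and Atg4c, among others, tend the other way.

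The libraries of the stages also differed in markers of other cells. The mean over 9 measured myeloid markers, a group of granule and monocyte genes, lay between -0.15 and -0.10 in stage E2 with EPO, between -0.12 and -0.09 in stage E2 without EPO, between 5.84 and 6.27 in stage E1 with EPO and between 6.13 and 6.59 in stage E1 without EPO. Of these, 8 of 9 were lower in stage E2 in both comparisons, with Mpo (myeloperoxidase) at -9.29 ± 0.16 with EPO and -9.47 ± 0.16 without EPO. The mast and basophil markers had 3 of 4 lower, with medians of -2.55 and -3.03, and the progenitor markers 3 of 4 lower, among them Kit, on which the stages were sorted. Erythroid markers had 5 of 7 higher with EPO and 6 of 7 higher without EPO, with Slc4a1 (the red cell anion exchanger) at 5.69 ± 0.33 and 6.61 ± 0.33, and all 4 measured megakaryocyte markers were higher, with medians of 2.48 and 1.87. Of the macrophage markers only C1qb of 7 was lower, of the B cell list only Ptprc, a gene of all white blood cells, of 4, and of the T cell list none of 4. The part of these cells in the stage differences of the autophagy genes was not tested, and any difference in the handling of the stages' arrays cannot be told apart from the stage itself. None of these markers was called between EPO and no EPO, apart from Gata2, which was higher with EPO in stage E2.

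Of the initiation complex, Ulk1 and Atg13 were higher in stage E2, Rb1cc1 was lower with EPO alone, and Ulk2 and Atg101 passed no stage test. ULK1 is the kinase that starts the cup, and its values (probe set 1416504_at) were 0.10, -0.10 and -0.25 with EPO and 0.60, 0.99 and 0.93 without EPO in stage E2. The E1 arrays stood at -2.22, -1.48, -1.40 and -1.58 with EPO and -1.71, -0.62, -0.94 and -0.47 without EPO. All 6 arrays of stage E2 lay above all 8 of stage E1, and the change was 1.59 ± 0.28 with EPO (3.01-fold, adjusted p = 0.00157) and 1.77 ± 0.28 without EPO (3.41-fold, adjusted p = 0.000809). A second Ulk1 probe set was higher by 0.92 ± 0.13 and 0.96 ± 0.13. ATG13, the adaptor that links the kinase to its partners, had values (probe set 1423793_at) of 0.15, -0.10 and -0.02 with EPO and 0.25, 0.58 and 0.17 without EPO in stage E2. In stage E1 there were -1.04, -1.34, -1.23 and -0.95 with EPO and -0.97, -1.56, -0.63 and -0.34 without EPO. The stages did not overlap for Atg13 either, with changes of 1.15 ± 0.24 with EPO and 1.21 ± 0.24 without EPO, and a second probe set was also higher, while 1458666_at passed neither test at -0.42 ± 0.27 and -0.60 ± 0.27. RB1CC1, the scaffold of the complex, was the exception in direction, and its values (probe set 1449292_at) were -1.05, -0.72 and -1.0 with EPO and -0.03, -0.39 and -0.29 without EPO in stage E2. Values in stage E1 were -0.42, 0.29, -0.24 and -0.39 with EPO and 0.03, -0.36, 0.13 and 0.06 without EPO. Its arrays of stage E2 with EPO were the lowest of the 14, and the change was -0.73 ± 0.18 with EPO (adjusted p = 0.0124) and -0.20 ± 0.18 without EPO (adjusted p = 0.405). The Rb1cc1 call was lost without E2 EPO replicate 1 or replicate 3, with an adjusted p of at most 0.0562. Its other 2 probe sets, all 4 of Ulk2, a relative of ULK1, and the 1 of Atg101, a partner of ATG13, passed neither stage test.

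The lipid kinase complex, which marks the site with a phosphoinositide, had 3 of its 5 genes higher. BECN1 is its scaffold, and its values (probe set 1455880_s_at) were 0.14, 0.23 and 0.34 with EPO and 0.05, -0.05 and -0.09 without EPO in stage E2. On the E1 arrays they were -1.66, -1.61, -1.52 and -1.22 with EPO and -1.32, -1.92, -1.59 and -1.66 without EPO. The arrays of stage E2 were tight and far above those of stage E1, with changes of 1.74 ± 0.14 with EPO (3.34-fold, adjusted p = 3.55e-06) and 1.59 ± 0.14 without EPO (3.02-fold, adjusted p = 7.47e-06). A second Becn1 probe set was higher by 1.14 ± 0.15 and 1.12 ± 0.15, and the other 3 passed neither test. ATG14 directs the complex to the site of the cup, and its values (probe set 1426780_at) were -0.07, -0.22 and 0.07 with EPO and 0.79, 1.30 and 1.04 without EPO in stage E2. For stage E1 the values were -2.76, -1.47, -1.69 and -1.01 with EPO and -0.65, -0.45, -1.05 and -1.0 without EPO. Its E1 arrays with EPO spread over more than 1 log2 unit, replicate 1 being the lowest, yet all 8 E1 arrays lay below all of stage E2, by 1.66 ± 0.33 with EPO and 1.83 ± 0.33 without EPO. AMBRA1, a regulator that binds beclin 1, had values (probe set 1454985_at) of 0.19, -0.12 and 0.38 with EPO and -0.12, 0.14 and 0.12 without EPO in stage E2. Arrays of stage E1 gave -0.91, -1.51, -0.76 and -0.50 with EPO and -1.60, -1.18, -0.83 and -0.65 without EPO. It was higher by 1.07 ± 0.26 with EPO and 1.11 ± 0.26 without EPO, with no overlap. Without E2 EPO replicate 3 the call with EPO was lost (adjusted p = 0.0539), and the other 2 Ambra1 probe sets passed neither test. Pik3c3, the kinase itself, changed by -0.13 ± 0.10 with EPO and -0.21 ± 0.10 without EPO. Uvrag, an alternative partner of it, changed by -0.12 ± 0.15 and -0.08 ± 0.15, and neither gene passed.

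Among the proteins that bring lipid to the cup or read its phosphoinositide, 4 of 5 genes were higher in both comparisons, by 9 of 14 probe sets with EPO and 11 of 14 without EPO. ATG9A is the transmembrane protein of the vesicles that seed the membrane, and its values (probe set 1435784_at) were -0.01, -0.27 and 0.14 with EPO and 0.01, 0.54 and 0.26 without EPO in stage E2. Stage E1 had -2.30, -2.56, -1.92 and -2.27 with EPO and -2.15, -2.54, -1.19 and -2.45 without EPO. The stages did not overlap, E1 replicate 3 without EPO being the nearest to stage E2, and the change was 2.22 ± 0.29 with EPO (4.65-fold, adjusted p = 0.000188) and 2.35 ± 0.29 without EPO (5.1-fold, adjusted p = 0.000136). WIPI1, which binds the phosphoinositide, had 6 probe sets, and the values of 1424917_a_at were 0.05, -0.07 and 0.03 with EPO and 0.51, 0.59 and 0.39 without EPO in stage E2. The E1 arrays stood at -1.67, -2.22, -1.97 and -1.67 with EPO and -2.68, -2.02, -1.77 and -1.47 without EPO. Here the stages stood more than 1 log2 unit apart on every array, with changes of 1.89 ± 0.23 with EPO (3.7-fold, adjusted p = 0.000126) and 2.48 ± 0.23 without EPO (5.59-fold, adjusted p = 1.8e-05). The other 5 Wipi1 probe sets changed by 0.56 to 1.40 with EPO, of which 4 passed, and by 0.85 to 1.79 without EPO, of which all 5 passed. Leaving out E2 EPO replicate 3 ended the calls with EPO of 1427323_s_at and 1456624_at (adjusted p = 0.0516 and 0.0635).

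WIPI2, which recruits the conjugation machinery, had values (probe set 1428882_at) of 0.02, -0.02 and -0.15 with EPO and 0.14, 0.20 and 0.32 without EPO in stage E2. In stage E1 there were -0.87, -1.27, -1.09 and -0.68 with EPO and -1.18, -0.83, -0.69 and -0.85 without EPO. It was higher by 0.93 ± 0.14 with EPO and 1.11 ± 0.14 without EPO, with no overlap, and so was 1429367_at, while 1456999_at was higher without EPO alone, at 0.65 ± 0.18. On that probe set stage E2 without EPO stood at 1.07, 0.33 and 0.33, and without its replicate 1 the change was 0.41 and did not pass, as it did not without E1 replicate 2 without EPO (adjusted p up to 0.0587). ATG2A, which moves lipid between membranes, had values (probe set 1426843_at) of 0.01, -0.17 and 0.01 with EPO and -0.01, 0.24 and 0.08 without EPO in stage E2. Values in stage E1 were -1.10, -2.58, -1.17 and -1.08 with EPO and -1.71, -2.03, -1.33 and -0.99 without EPO. E1 replicate 2 was the lowest array both with and without EPO, and the changes were 1.43 ± 0.35 and 1.62 ± 0.35, with no overlap between stages. Its relative Atg2b changed by -0.39 ± 0.20 with EPO and -0.14 ± 0.20 without EPO on its representative probe set, and none of its 3 probe sets passed.

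The 4 Atg4 proteases trim LC3 and GABARAP proteins before conjugation and remove them from the membrane afterwards, and 3 of the 4 genes were higher in stage E2 while Atg4c was lower. Atg4d (probe set 1433918_at) had values of 0.13, 0.06 and 0.18 with EPO and 0.00, 0.00 and -0.15 without EPO in stage E2. On the E1 arrays they were -1.64, -2.04, -2.03 and -1.80 with EPO and -1.76, -1.63, -1.70 and -2.14 without EPO. Its groups were the most sharply parted of the genes here by adjusted p, with changes of 2.0 ± 0.13 with EPO (4.01-fold, adjusted p = 7.66e-07) and 1.76 ± 0.13 without EPO (3.38-fold, adjusted p = 2.2e-06). Values of Atg4a (probe set 1434662_at) were 0.14, 0.17 and -0.02 with EPO and 0.11, -0.06 and 0.02 without EPO in stage E2. For stage E1 the values were -1.56, -2.11, -2.16 and -2.30 with EPO and -1.33, -1.49, -1.66 and -1.66 without EPO. This too left a wide gap between stages, 2.13 ± 0.15 with EPO (4.38-fold, adjusted p = 1.86e-06) and 1.56 ± 0.15 without EPO (2.95-fold, adjusted p = 2.16e-05). Atg4b, the most active of the proteases on LC3, had values (probe set 1424102_at) of 0.70, 0.66 and 0.66 with EPO and 0.84, 0.83 and 0.95 without EPO in stage E2. Arrays of stage E1 gave -0.03, -0.56, -0.47 and -0.40 with EPO and -0.26, -0.16, -0.26 and -0.17 without EPO. Atg4b was higher by 1.04 ± 0.10 and 1.08 ± 0.10, again with no overlap. A second Atg4b probe set was higher by 0.42 ± 0.08 and 0.54 ± 0.08 and the remaining one passed neither test. A second Atg4d probe set was higher with EPO alone (0.67 ± 0.13, against 0.24 ± 0.13 without EPO), and a second Atg4a probe set passed neither test. Atg4c went the other way, and the values of 1441440_at were -0.37, -0.07 and -0.36 with EPO and -0.03, -0.04 and 0.00 without EPO in stage E2. Stage E1 had 0.49, 0.38, 0.06 and 0.00 with EPO and 0.51, 0.11, 0.43 and 0.62 without EPO. Its changes of -0.50 ± 0.14 with EPO (adjusted p = 0.0271) and -0.44 ± 0.14 without EPO (adjusted p = 0.0487) were small. The second of them was lost when any 1 of 10 of the 14 arrays was left out, the first when E1 EPO replicate 1 or 2 or E2 EPO replicate 1 or 3 was left out. A second Atg4c probe set changed by 0.24 ± 0.21 and -0.16 ± 0.21 and passed neither test.

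The promoters of Atg4a and Atg4d are printed because Atg4d had the smallest adjusted p among the members in both stage comparisons and Atg4a the next smallest with EPO, and because they were the only ones, of 33 members with a promoter in the RefSeq table, whose 250 bases before the annotated start held the letters AGATAA on either strand, a form of the motif that GATA factors bind. It was found in 2 of 38 windows (5.26%), beside 9.99% of all 32851 windows of that table. Sequences run 5′ to 3′ in the direction of the gene, capitals mark the motif, and positions are those of GRCm38.p6. Atg4a has a second annotated start, whose window held none of the 4 motifs searched.
Atg4a, chrX:140953595-140953844, + strand: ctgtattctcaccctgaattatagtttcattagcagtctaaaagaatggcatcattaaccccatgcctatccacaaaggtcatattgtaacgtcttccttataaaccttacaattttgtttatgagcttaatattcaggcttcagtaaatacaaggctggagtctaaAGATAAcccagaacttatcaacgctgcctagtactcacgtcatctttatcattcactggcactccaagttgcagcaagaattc
Atg4d, chr9:21265035-21265284, + strand: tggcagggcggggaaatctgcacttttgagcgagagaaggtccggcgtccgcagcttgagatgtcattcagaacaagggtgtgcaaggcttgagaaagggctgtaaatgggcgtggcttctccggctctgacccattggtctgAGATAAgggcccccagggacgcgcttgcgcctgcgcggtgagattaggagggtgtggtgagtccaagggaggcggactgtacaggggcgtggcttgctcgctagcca
The match lies 83 to 78 bases before the start in Atg4a and 107 to 102 bases before it in Atg4d. No member window held GTAAACA, a form of the motif of FOXO factors (3.17% of all windows), and 5 held CACGTG, a motif of TFEB and other helix-loop-helix factors (13.2%, beside 6.02% of all windows), those of Atg3, Atg5, Atg7, Bnip3 and Lamp1.

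**Figure D2:**
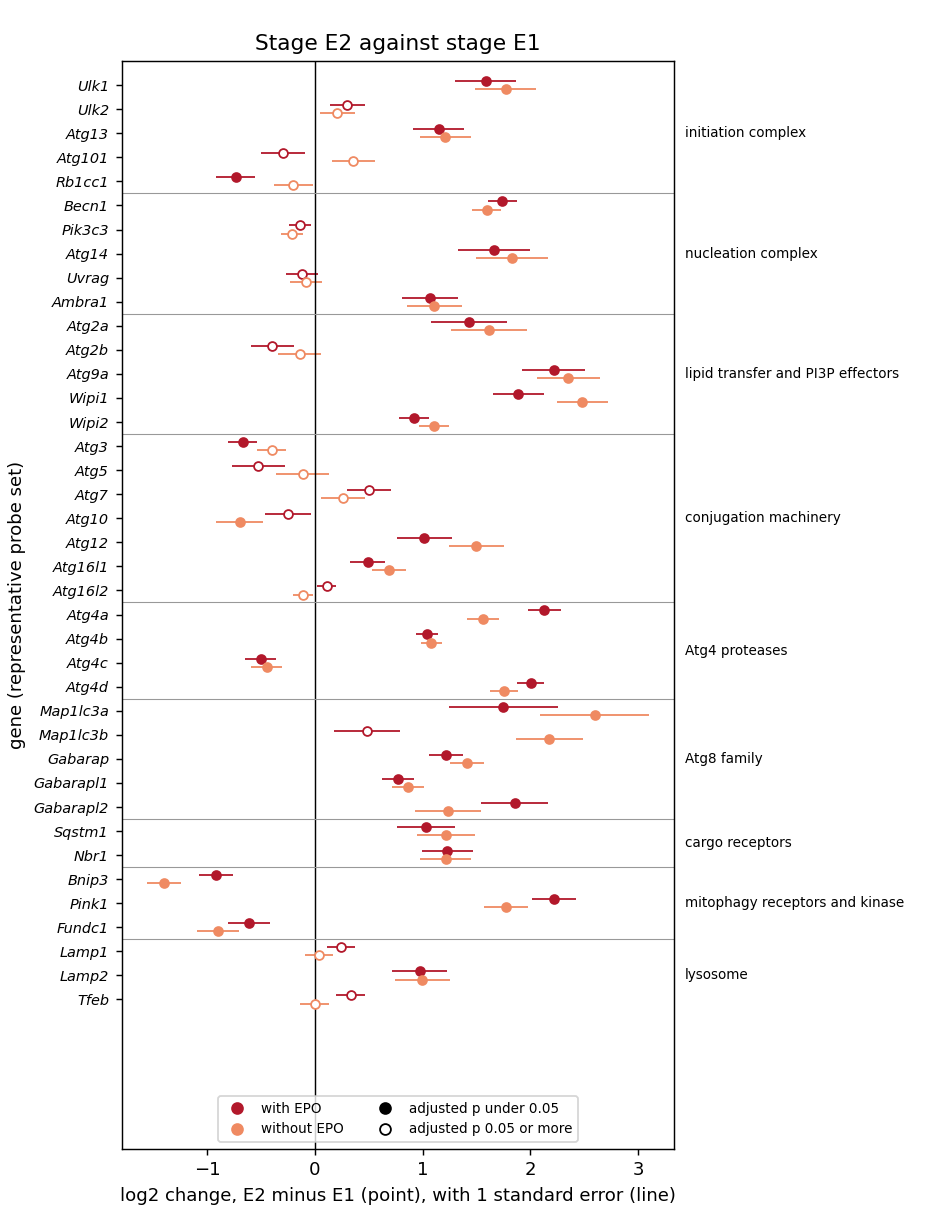
Log2 change of stage E2 against stage E1 with EPO (dark red) and without EPO (orange), as the estimate and 1 standard error, for the representative probe set of each gene by role, filled where the adjusted p was under 0.05. Changes reach 2.22 with EPO (Atg9a and Pink1) and 2.60 without EPO (Map1lc3a), and Bnip3 is the lowest at -0.92 and -1.40.

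The Atg8 family, the LC3 and GABARAP proteins that are fixed to the membrane and hold cargo, moved together. All 5 genes were higher in stage E2 in both comparisons, by 9 of 11 probe sets with EPO and 10 of 11 without EPO. Map1lc3a (probe set 1451290_at) had values of 0.18, 0.04 and 0.31 with EPO and -0.04, 0.20 and -0.07 without EPO in stage E2. The E1 arrays stood at -1.85, -2.68, -1.17 and -0.60 with EPO and -3.85, -2.06, -2.15 and -2.19 without EPO. E1 replicate 1 without EPO stood far below the other arrays, and the E1 arrays with EPO ranged over 2 log2 units, and the change was the largest of the 91 probe sets without EPO, with a wide error, 1.75 ± 0.50 with EPO (adjusted p = 0.0276) and 2.60 ± 0.50 without EPO (adjusted p = 0.00304). The call with EPO was lost without E1 EPO replicate 1 or 2 or any 1 array of stage E2 with EPO (adjusted p up to 0.089), but the second Map1lc3a probe set, 1447883_x_at, was higher by 1.38 ± 0.16 and 1.03 ± 0.16 and held without any 1 array.

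Map1lc3b encodes the LC3 protein most used as a marker of autophagosomes, and its 4 probe sets did not behave alike. The values of 1428024_at were -0.04, 0.00 and 0.00 with EPO and 1.62, 0.63 and 1.09 without EPO in stage E2. In stage E1 there were -0.65, -0.55, -0.58 and -0.20 with EPO and -0.14, -1.34, -1.36 and -1.42 without EPO. Arrays of stage E2 without EPO stood highest there, E1 replicate 1 without EPO lay apart from the other 3 of its group, and the change was 0.48 ± 0.31 with EPO (adjusted p = 0.266) and 2.18 ± 0.31 without EPO (4.52-fold, adjusted p = 0.000341). The other 3 probe sets gave closer values in both, 0.77 to 1.05 with EPO and 0.64 to 1.16 without EPO, and all of them passed.

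Gabarap (probe set 1416937_at) had values of 0.03, -0.01 and -0.15 with EPO and 0.01, 0.20 and 0.09 without EPO in stage E2. Values in stage E1 were -1.01, -1.43, -1.33 and -1.28 with EPO and -1.53, -1.65, -1.08 and -0.98 without EPO. Its changes were 1.22 ± 0.16 with EPO and 1.41 ± 0.16 without EPO. For Gabarapl2 (probe set 1423187_at), known from transport through the Golgi as well, the values were -0.01, 0.05 and -0.23 with EPO and 0.17, 0.01 and 0.09 without EPO in stage E2. On the E1 arrays they were -1.5, -1.58, -1.22 and -0.89 with EPO and -1.37, -1.42, -1.49 and -1.47 without EPO. Both genes left more than 0.5 log2 units between the stages, and Gabarapl2 was higher by 1.23 ± 0.14 with EPO and 1.53 ± 0.14 without EPO. Its representative probe set, 1441376_at, was more variable among E1 arrays with EPO, at -1.91, -1.31, -2.80 and -1.14, against -1.29, -1.12, -1.31 and -1.31 without EPO, while stage E2 stood at 0.09, 0.02 and 0.08 with EPO and -0.02, -0.16 and 0.11 without EPO. That probe set was higher by 1.85 ± 0.31 and 1.24 ± 0.31, and the call without EPO was lost when E2 replicate 3 without EPO was left out (adjusted p = 0.0556). Gabarapl1 had the smallest change of the 5 representative probe sets without EPO, and its values (probe set 1416418_at) were 0.17, 0.40 and 0.33 with EPO and -0.18, -0.03 and 0.03 without EPO in stage E2. For stage E1 the values were -0.64, -0.58, -0.23 and -0.43 with EPO and -1.10, -1.18, -0.53 and -0.89 without EPO. The stages did not overlap, the change was 0.77 ± 0.15 with EPO and 0.86 ± 0.15 without EPO, and its second probe set, 1416419_s_at, passed neither test at -0.15 ± 0.10 and -0.17 ± 0.10.

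The conjugation machinery that attaches the Atg8 proteins was divided, with 2 of 7 genes higher and 1 lower in each comparison. ATG12, the ubiquitin-like partner of ATG5, had values (probe set 1451746_a_at) of -0.06, 0.06 and -0.58 with EPO and 0.12, 0.16 and 0.26 without EPO in stage E2. Arrays of stage E1 gave -1.26, -1.28, -1.26 and -1.04 with EPO and -0.90, -1.14, -2.13 and -1.12 without EPO. The changes were 1.02 ± 0.25 with EPO and 1.5 ± 0.25 without EPO. All E2 arrays lay above all E1 arrays, E2 EPO replicate 3 being the nearest, and the call with EPO was lost without E2 EPO replicate 1 or 2 (adjusted p up to 0.0599). Its second probe set, 1451747_a_at, had values of -0.03, -0.01 and 0.01 with EPO and 0.16, 0.15 and 0.18 without EPO in stage E2. Stage E1 had -1.01, -0.82, -0.84 and -1.09 with EPO and -0.44, -0.32, -0.45 and -0.72 without EPO. Tighter groups there gave 0.93 ± 0.09 with EPO (adjusted p = 1.27e-05) and 0.65 ± 0.09 without EPO (adjusted p = 0.000215), calls that held without any 1 array, and the remaining Atg12 probe set passed neither test.

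ATG16L1, which places the conjugation enzyme on the membrane, had values (probe set 1428169_at) of 0.13, 0.04 and 0.29 with EPO and -0.07, -0.10 and -0.02 without EPO in stage E2. The E1 arrays stood at -0.46, -0.76, 0.02 and -0.15 with EPO and -0.72, -0.98, -0.59 and -0.71 without EPO. Stages lay close together with EPO, where the change was 0.49 ± 0.16 (adjusted p = 0.0482, lost when any 1 of 10 of the 14 arrays was left out), and farther apart without EPO, at 0.69 ± 0.16 (adjusted p = 0.00916). The lower genes were different ones. ATG3, the enzyme that hands LC3 to the lipid, had values (probe set 1448993_at) of 0.15, -0.11 and -0.08 with EPO and -0.06, -0.10 and 0.06 without EPO in stage E2. In stage E1 there were 0.37, 0.59, 0.77 and 0.87 with EPO and 0.11, 0.64, 0.33 and 0.38 without EPO. Its change was -0.67 ± 0.14 with EPO (adjusted p = 0.00375), and -0.40 ± 0.14 without EPO (adjusted p = 0.0591). ATG10, the enzyme that hands ATG12 to ATG5, had values (probe set 1419081_at) of -0.07, -0.04 and 0.31 with EPO and -0.08, -0.21 and -0.04 without EPO in stage E2. Values in stage E1 were 0.11, 0.53, 0.61 and -0.01 with EPO and 1.05, 0.70, 0.52 and 0.09 without EPO. Here the change was -0.25 ± 0.22 with EPO (adjusted p = 0.393) and -0.70 ± 0.22 without EPO (adjusted p = 0.0417), and the call without EPO was lost when any 1 of 8 of the 14 arrays was left out. The 3 probe sets of Atg5 changed by -0.52 to -0.26 with EPO and -0.42 to -0.11 without EPO, and neither they nor the 4 of Atg7, the activating enzyme, and the 2 of Atg16l2, a relative of ATG16L1, passed, nor did the second probe sets of Atg3 and Atg16l1.

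Both cargo receptors, which bind ubiquitin and LC3, were higher in stage E2. SQSTM1, also called p62, had values (probe set 1450957_a_at) of 0.03, -0.03 and -0.21 with EPO and 0.06, 0.31 and 0.17 without EPO in stage E2. On the E1 arrays they were -1.0, -1.86, -0.92 and -0.63 with EPO and -1.48, -1.12, -1.03 and -0.53 without EPO. E1 EPO replicate 2 and E1 replicate 1 without EPO were the lowest. The stages did not overlap, and the change was 1.03 ± 0.27 with EPO (adjusted p = 0.0169) and 1.22 ± 0.27 without EPO (adjusted p = 0.00721). The call with EPO was lost without E2 EPO replicate 1 or 2 (adjusted p up to 0.0636), and a second Sqstm1 probe set passed neither test. NBR1, its relative, is measured by 2 probe sets, and the values of 1448343_a_at were 0.09, -0.11 and -0.09 with EPO and 0.33, 0.31 and 0.33 without EPO in stage E2. For stage E1 the values were -1.39, -1.12, -1.44 and -1.34 with EPO and -0.53, -0.42, -0.64 and -0.81 without EPO. In these values all 4 groups were parted from each other, and stage E2 was higher by 1.29 ± 0.09 with EPO (2.44-fold, adjusted p = 2.24e-06) and 0.92 ± 0.09 without EPO (1.89-fold, adjusted p = 3.15e-05). The other probe set, 1451897_a_at, had values of 0.03, -0.03 and -0.41 with EPO and 0.42, 0.66 and 0.54 without EPO in stage E2. Arrays of stage E1 gave -1.78, -1.63, -1.26 and -0.80 with EPO and -0.41, -0.38, -0.96 and -0.95 without EPO. It too was higher in stage E2, by 1.23 ± 0.24 with EPO and 1.22 ± 0.24 without EPO. The stages did not overlap within either treatment, while E2 EPO replicate 3 lay no higher than E1 replicates 1 and 2 without EPO.

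The mitophagy genes went in opposite directions. PINK1, the kinase that builds up on damaged mitochondria and recruits parkin, had values (probe set 1451148_at) of -0.05, 0.05 and 0.06 with EPO and -0.10, 0.16 and 0.19 without EPO in stage E2. Stage E1 had -2.78, -2.24, -1.93 and -1.86 with EPO and -1.99, -1.72, -1.66 and -1.39 without EPO. More than 1 log2 unit lay between the stages, and the change was 2.22 ± 0.20 with EPO (4.66-fold, adjusted p = 1.22e-05) and 1.77 ± 0.20 without EPO (3.42-fold, adjusted p = 7.25e-05), with 1.96 ± 0.22 and 1.69 ± 0.22 on its second probe set. BNIP3 is a receptor in the outer mitochondrial membrane that binds LC3 and is induced by low oxygen, and its values (probe set 1422470_at) were -0.23, 0.05 and -0.23 with EPO and -0.13, -0.12 and 0.06 without EPO in stage E2. The E1 arrays stood at 0.81, 0.87, 0.77 and 0.66 with EPO and 0.84, 1.51, 1.39 and 1.61 without EPO. All 6 arrays of stage E2 lay below all 8 of stage E1, with changes of -0.92 ± 0.16 with EPO (1.89-fold lower, adjusted p = 0.00123) and -1.40 ± 0.16 without EPO (2.64-fold lower, adjusted p = 6.28e-05). FUNDC1, another receptor of the outer membrane, had values (probe set 1424215_at) of 0.00, -0.16 and 0.03 with EPO and 0.00, -0.02 and -0.07 without EPO in stage E2. In stage E1 there were 0.29, 1.17, 0.36 and 0.43 with EPO and 0.92, 1.17, 0.66 and 0.71 without EPO. It too was lower in stage E2 on every array, with changes of -0.61 ± 0.19 with EPO (adjusted p = 0.0428, lost when any 1 of 8 of the 14 arrays was left out) and -0.90 ± 0.19 without EPO (adjusted p = 0.00591). A second probe set, 1453369_a_at, was lower too, at -0.55 ± 0.12 and -0.62 ± 0.12 and held without any 1 array, while 1436278_at passed neither test. Both lower Fundc1 probe sets no longer passed with the replicate block in either comparison. The same block ended calls of other members, among them Atg3 with EPO and Gabarapl2 on 1441376_at without EPO. Its numbers did not pair the stages with each other.

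Of the lysosomal genes only Lamp2, a membrane protein needed for fusion with autophagosomes, was called between stages. Its values (probe set 1416343_a_at) were 0.64, 0.99 and 0.60 with EPO and 0.66, 0.83 and 0.66 without EPO in stage E2. Values in stage E1 were -0.08, -0.43, 0.11 and -0.52 with EPO and -0.96, 0.12, -0.43 and 0.13 without EPO. E1 arrays were scattered, 1 of them near -1, all below stage E2, and the change was 0.97 ± 0.25 with EPO (adjusted p = 0.0162) and 1.0 ± 0.25 without EPO (adjusted p = 0.015). Each call was lost without replicate 2 of its E2 group (adjusted p = 0.0728 with EPO and 0.0612 without EPO). The other 3 Lamp2 probe sets were higher with EPO, by 0.48 to 0.92, and passed no test without EPO, at 0.01 to 0.55. Without E2 EPO replicate 3 the call of 1428094_at was lost (adjusted p = 0.0581), and that of 1434503_s_at was lost without any of 5 arrays with EPO (adjusted p up to 0.115). Lamp1, its relative, changed by 0.25 ± 0.13 and 0.04 ± 0.13, and Tfeb, the transcription factor of lysosomal genes, by 0.33 ± 0.13 and 0.00 ± 0.13.

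Of the calls for higher probe sets, 33 of 43 with EPO and 39 of 42 without EPO held when each of the 14 arrays was left out in turn. Of those for lower probe sets, 3 of 6 with EPO and 3 of 5 without EPO did. Under every one of the other settings tried, 31 of 43 higher calls with EPO and 38 of 42 without EPO held, and 1 of 6 lower calls with EPO and 1 of 5 without EPO.

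The second question was what EPO did to these genes within a stage after 90 min. EPO was followed by few changes in these genes, and all that passed the test were decreases. In stage E2, 7 probe sets of 5 genes were lower and none higher, 7.69% and 0.0% of the 91, beside 2.08% and 2.54% of all probe sets tested. At an unadjusted p under 0.05, 28 were lower and 7 higher, beside 8.66% and 7.81%. Arrays with and without EPO did not overlap for 32 probe sets that were lower and 10 that were higher, beside 13.7% and 9.42%. In stage E1, 1 probe set was lower and none higher, beside 0.36% and 0.804%, and at an unadjusted p under 0.05, 11 were lower and 1 higher, beside 3.82% and 5.02%. The groups of stage E1 did not overlap for 6 that were lower and none that was higher, beside 2.3% and 3.28%. The median change of the 91 probe sets was -0.06 in stage E2 and -0.08 in stage E1.

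Ulk1, Atg14, Wipi1, Atg12 and Nbr1 were the genes called lower with EPO in stage E2, and each was also higher in stage E2 than in stage E1 without EPO, a comparison that uses the same E2 arrays without EPO. Ulk1 averaged -0.08 ± 0.17 with EPO and 0.84 ± 0.21 without EPO in stage E2 (SD, n = 3 arrays each), a change of -0.92 ± 0.14 (1.89-fold lower, adjusted p = 0.0414 from limma). In stage E1 it averaged -1.67 ± 0.37 with EPO and -0.93 ± 0.55 without EPO (SD, n = 4 arrays each), a change of -0.73 ± 0.31 (adjusted p = 0.574). The second Ulk1 probe set, 1448370_at, stood at -0.02, -0.24 and 0.02 with EPO and 0.41, 0.78 and 0.48 without EPO in stage E2. On the E1 arrays they were -1.14, -1.26, -0.82 and -0.77 with EPO and -0.33, -0.58, -0.30 and -0.39 without EPO. Arrays with and without EPO did not overlap in either stage there, and the change was -0.64 ± 0.13 in stage E2 (adjusted p = 0.0715) and -0.60 ± 0.13 in stage E1 (adjusted p = 0.115), which passed in neither. Atg14 had the largest call, -1.12 ± 0.15 in stage E2 (2.17-fold lower, adjusted p = 0.0299), where its highest array with EPO was 0.07 and its lowest without EPO 0.79. In stage E1 it changed by -0.95 ± 0.37 (adjusted p = 0.503), with overlapping groups.

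Wipi1 was lower with EPO in stage E2 on 3 probe sets, 1424917_a_at with a change of -0.49 ± 0.06 (1.41-fold, adjusted p = 0.0253), 1439060_s_at with a change of -0.53 ± 0.06 (1.44-fold, adjusted p = 0.0214) and 1427323_s_at with a change of -0.40 ± 0.03 (1.32-fold, adjusted p = 0.00803). The last stood at -0.02, -0.02 and 0.02 with EPO and 0.45, 0.35 and 0.36 without EPO in stage E2. For stage E1 the values were -0.27, -0.91, -0.40 and -0.68 with EPO and -0.64, -0.62, -0.35 and -0.24 without EPO. In stage E2 the arrays with EPO all lay near 0 and those without EPO at or above 0.35, whereas in stage E1 the groups overlapped, and the 6 Wipi1 probe sets changed there by -0.35 to 0.13 with none passing. For 1439060_s_at the values were 0.10, -0.06 and 0.13 with EPO and 0.63, 0.61 and 0.52 without EPO in stage E2. Arrays of stage E1 gave -0.94, -1.45, -1.57 and -1.39 with EPO and -0.67, -0.98, -1.28 and -1.0 without EPO. A further probe set, 1452392_a_at, had the widest change of the 6 in stage E2, -1.03 ± 0.24, but its arrays were scattered and it did not pass (adjusted p = 0.101).

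Atg12 was called on 1451747_a_at, where the values given above differed by -0.17 ± 0.01 in stage E2 (1.13-fold lower, adjusted p = 0.00837), a small change between tight groups. It differed by -0.46 ± 0.10 in stage E1 (adjusted p = 0.121). Groups did not overlap in either stage, while its other probe sets passed in neither. Nbr1 was the only gene called lower in both stages. On 1448343_a_at it averaged -0.04 ± 0.11 with EPO and 0.32 ± 0.01 without EPO in stage E2 (SD, n = 3 arrays each), a change of -0.36 ± 0.06 (1.28-fold lower, adjusted p = 0.0449 from limma). In stage E1 it averaged -1.32 ± 0.14 with EPO and -0.60 ± 0.16 without EPO (SD, n = 4 arrays each), a change of -0.72 ± 0.10 (1.65-fold lower, adjusted p = 0.029 from limma). The labels do not say that the replicate numbers pair the arrays. A limma fit that treated them as pairs in stage E1, with that number as a block, gave a different call: the adjusted p in stage E1 was 0.123. The other Nbr1 probe set changed by -0.68 ± 0.14 in stage E2 (adjusted p = 0.0809) and -0.69 ± 0.26 in stage E1 (adjusted p = 0.447).

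Most of these calls did not hold when 1 array was left out. In stage E1 the Nbr1 call was lost without any 1 array except E1 replicate 4 without EPO and E1 EPO replicate 2 (adjusted p up to 0.0992). In stage E2 the calls of 1427323_s_at for Wipi1 and 1451747_a_at for Atg12 held without any 1 array (adjusted p up to 0.0394 and 0.0378). Those of Ulk1 and Atg14 held only without E2 replicate 1 without EPO (up to 0.131 and 0.103). That of 1424917_a_at held only without E2 replicate 3 without EPO (up to 0.087), and that of 1439060_s_at only without E2 EPO replicate 2 or 3 (up to 0.0921). The Nbr1 call held only without E2 EPO replicate 1 (up to 0.146). In the fit on all 14 arrays none of these 7 probe sets passed in stage E2, and 2 other member probe sets were lower.

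**Figure D3:**
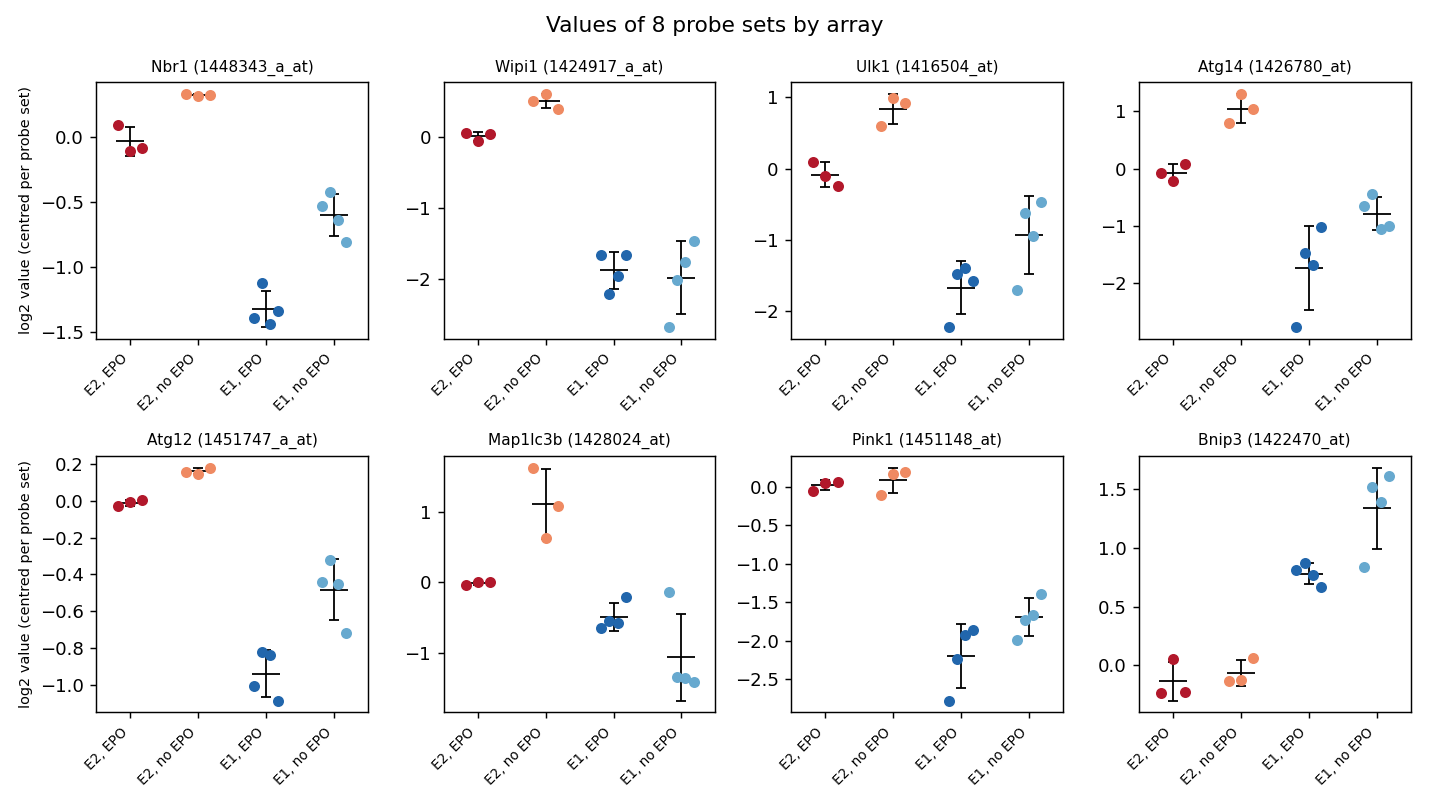
Log2 values of 8 probe sets on every array (points) by group, with the mean (bar) and 1 SD (whiskers), each panel on its own scale. Nbr1, Wipi1, Ulk1, Atg14 and Atg12 stand lower with EPO than without EPO in stage E2, Nbr1 also does so in stage E1, and Pink1 and Bnip3 part the stages in opposite directions.

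The promoters of Wipi1 and Nbr1 are printed because both genes were lower with EPO in stage E2 and both held TTCNNNGAA, the palindrome that STAT factors bind downstream of the EPO receptor, in the 250 bases before a start annotated by RefSeq (GRCm38.p6). This motif was found on either strand in 4 of 38 member windows (10.5%), those of Gabarap, Gabarapl1, Nbr1 and Wipi1, beside 7.02% of all windows. The windows of Ulk1 and Atg14, also lower with EPO in stage E2, held no match of any motif searched, and Atg12 had no window. Capitals mark the motif.
Wipi1, chr11:109611390-109611639, - strand: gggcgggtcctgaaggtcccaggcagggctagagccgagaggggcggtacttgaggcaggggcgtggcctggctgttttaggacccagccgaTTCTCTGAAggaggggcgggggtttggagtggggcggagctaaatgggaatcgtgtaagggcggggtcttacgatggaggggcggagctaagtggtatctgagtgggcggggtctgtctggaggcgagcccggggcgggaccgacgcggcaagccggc
Nbr1, chr11:101552404-101552653, + strand: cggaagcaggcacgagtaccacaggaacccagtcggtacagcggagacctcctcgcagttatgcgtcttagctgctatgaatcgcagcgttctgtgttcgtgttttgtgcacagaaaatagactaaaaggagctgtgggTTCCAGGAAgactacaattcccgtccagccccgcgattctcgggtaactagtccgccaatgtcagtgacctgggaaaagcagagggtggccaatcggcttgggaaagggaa
The match lies 158 to 150 bases before the start in Wipi1 and 111 to 103 bases before it in Nbr1, which has another annotated start with no match in its window. Each of the 4 windows printed holds 1 match of the 4 motifs, so that none overlap. Gabarapl1, whose window also held the letters, changed with EPO by 0.36 ± 0.08 in stage E2 (adjusted p = 0.106) and 0.45 ± 0.16 in stage E1 (adjusted p = 0.414). Gabarap, whose window held them too, changed by -0.14 ± 0.07 in stage E2 and 0.05 ± 0.18 in stage E1 and passed in neither.

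Other members with the smallest p-values did not pass. In stage E2 the nearest was Ulk2, whose probe set 1417847_at stood at -0.07, -0.11 and 0.06 with EPO and 0.36, 0.46 and 0.27 without EPO, a change of -0.40 ± 0.07 with no overlap (adjusted p = 0.0533). In stage E1, Lamp2 on 1416344_at stood at -0.28, 0.00, -0.21 and -0.21 with EPO and 0.30, 0.38, 0.00 and 0.11 without EPO (-0.37 ± 0.10, adjusted p = 0.212). Both of these genes have other probe sets that moved less. Rb1cc1 on 1418968_at stood in stage E1 at -0.93, -0.21, -0.39 and -0.38 with EPO and 0.02, 0.45, 0.04 and 0.00 without EPO (-0.60 ± 0.18, adjusted p = 0.275). Bnip3 changed by -0.56 ± 0.17 in stage E1 (adjusted p = 0.284), where the 4 arrays with EPO lay within 0.66 to 0.87 and E1 replicate 1 without EPO, at 0.84, fell among them while the other 3 lay at 1.39 or above. Without that array, the nearest of its group to the arrays with EPO, the Bnip3 change was -0.72 and passed (adjusted p = 0.0233). With another array left out the adjusted p reached 0.569.

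**Figure D4:**
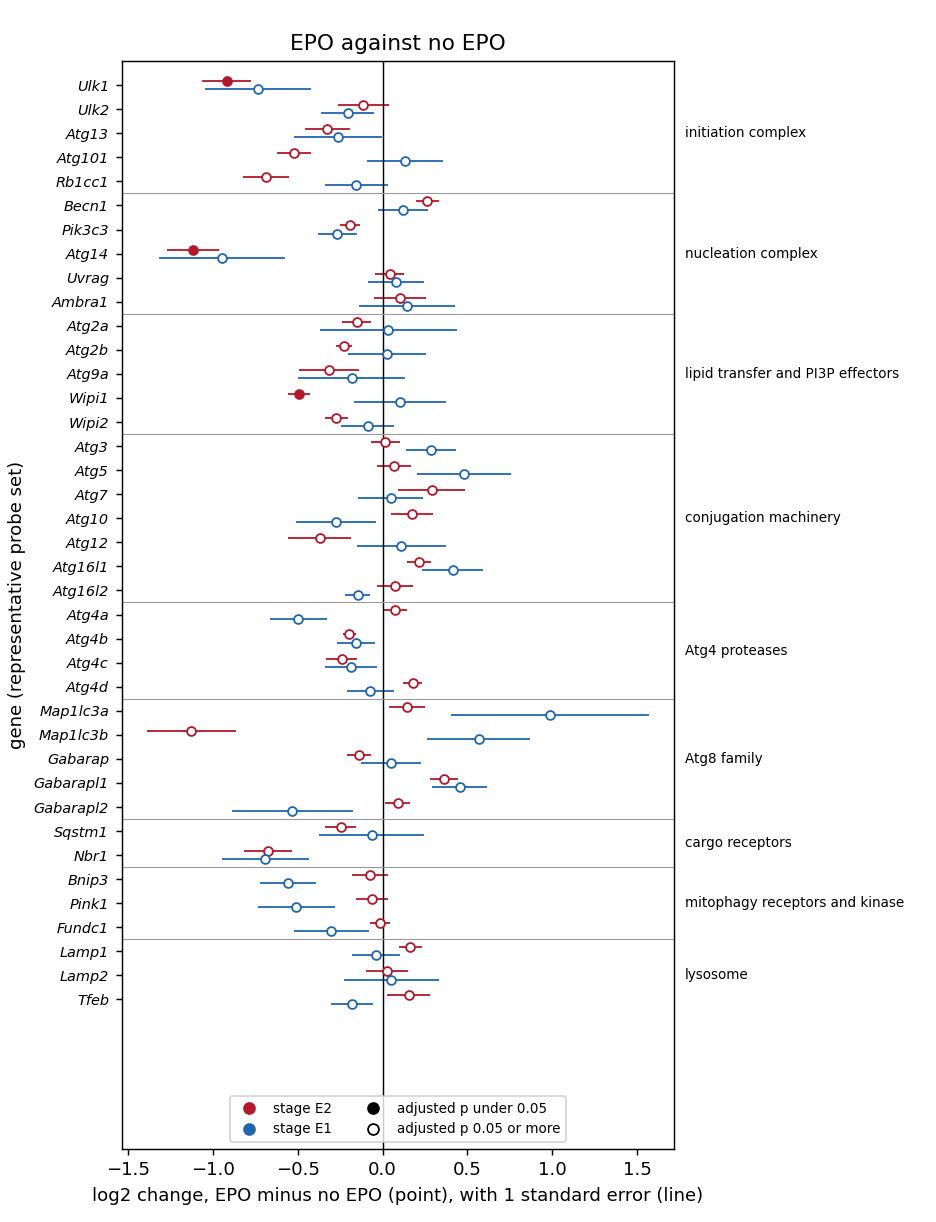
Log2 change of EPO against no EPO in stage E2 (red) and in stage E1 (blue), as the estimate and 1 standard error, for the representative probe set of each gene by role, filled where the adjusted p was under 0.05. The 3 filled points are Ulk1, Atg14 and Wipi1 in stage E2, at -0.92, -1.12 and -0.49.

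Whether EPO acted differently in the stages was tested with the stage by EPO interaction, and no member passed (0 higher and 0 lower, beside 0.18% and 0.235% of all probe sets, limma with Benjamini-Hochberg adjustment). At an unadjusted p under 0.05, 6 probe sets were higher and 5 lower, beside 3.24% and 3.95%. The smallest adjusted p belonged to Map1lc3b on 1428024_at, which changed by -1.13 ± 0.26 in stage E2 and 0.57 ± 0.30 in stage E1, an interaction of -1.69 ± 0.43 (adjusted p = 0.191). Without E1 replicate 1 without EPO, the array that stood apart from its group, the interaction was -2.0 and passed (adjusted p = 0.0228). With another array left out the adjusted p reached 0.413. Next were Lamp2 on 1416344_at (0.47 ± 0.13, adjusted p = 0.229), Wipi1 on 1452392_a_at (-1.17 ± 0.33, adjusted p = 0.261), Nbr1 on 1448343_a_at (0.37 ± 0.13, adjusted p = 0.479), Atg4a (0.57 ± 0.21, adjusted p = 0.508) and Fundc1 on 1436278_at (-0.54 ± 0.22, adjusted p = 0.604). The last of these stood in stage E2 at -0.03, 0.09 and -0.03 with EPO and 0.85, 0.51 and 0.01 without EPO, and in stage E1 at -0.02, -0.01, 0.26 and 0.25 with EPO and 0.00, 0.00, 0.15 and -0.06 without EPO. Atg4a passed without E1 EPO replicate 1 (0.73, adjusted p = 0.0393), while without another array its adjusted p reached 0.869. The Nbr1 interaction turned to -0.078 under quantile normalization. The genes called lower with EPO in stage E2 alone are thus not shown to respond differently in stage E1.

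**Figure D5:**
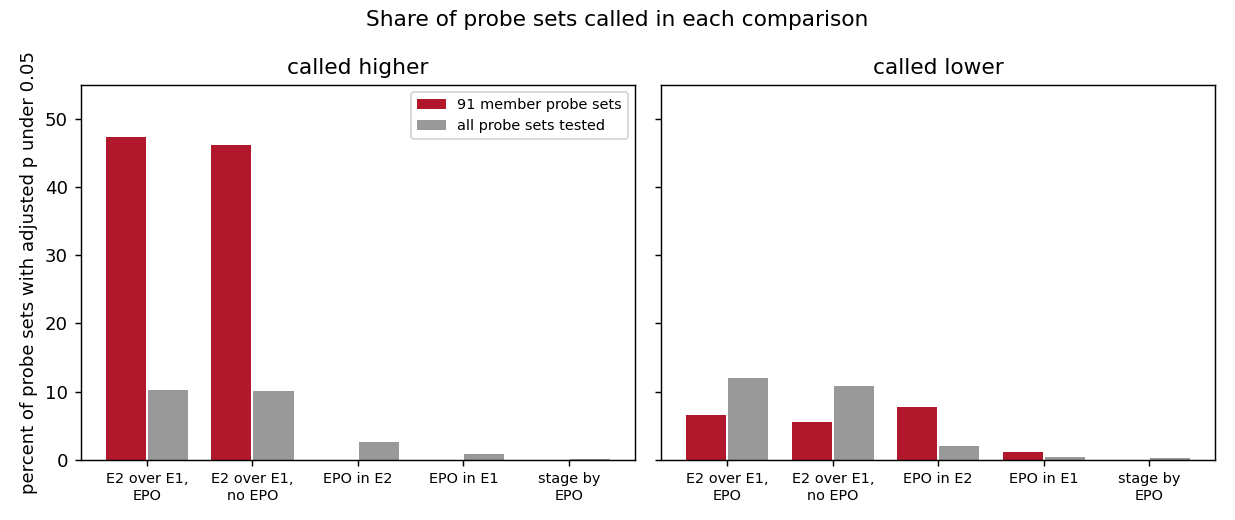
Percent of the 91 member probe sets (red) and of all 45037 probe sets tested (grey) called higher (left) and lower (right) in each comparison. Members were called higher in stage E2 at 47.3% and 46.2%, beside 10.3% and 10.1% of all probe sets, and no member was called in the interaction.

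Genes around the machinery, taken from 8 lists, were counted by gene in the stage comparisons, beside 13.2% higher and 15.0% lower of all 18193 genes with EPO and 13.4% and 13.8% without EPO. Of 39 measured upstream regulators, 13 were higher and 5 lower with EPO and 13 higher and 6 lower without EPO. Among them Sesn2, a stress-induced inhibitor of mTORC1, was higher by 2.56 ± 0.26 with EPO and 4.31 ± 0.26 without EPO, and Rragd, a Rag GTPase, by 2.42 ± 0.20 and 1.86 ± 0.20, while Mtor itself was lower (-0.56 ± 0.07 and -0.59 ± 0.07). Other cargo receptors had 5 of 13 higher and 1 lower with EPO and 5 higher and 2 lower without EPO, with Calcoco1, a receptor for endoplasmic reticulum, at 2.63 ± 0.20 and 2.71 ± 0.20. For Ncoa4, the receptor for ferritin, the arrays stood at 0.12, 0.14 and 0.07 with EPO and 0.01, -0.08 and -0.01 without EPO in stage E2, against -1.86, -1.59, -2.09 and -2.06 with EPO and -1.69, -1.77, -1.91 and -2.16 without EPO in stage E1. The stages lay far apart for this gene, by 2.01 ± 0.13 with EPO and 1.86 ± 0.13 without EPO. Of 11 erythroid and FOXO/GATA regulators, 6 were higher and none lower in each comparison, such as Nfe2, an erythroid transcription factor (2.06 ± 0.16 and 1.88 ± 0.16), Foxo4, a forkhead factor (1.52 ± 0.14 and 1.24 ± 0.14), and Gata1, which is also among the erythroid markers (0.99 ± 0.07 and 0.67 ± 0.07). Vacuolar ATPase subunits, which acidify the lysosome, had 6 of 15 higher and 2 lower with EPO and 5 higher and 3 lower without EPO, with Atp6v0d1 at 1.55 ± 0.12 and 1.40 ± 0.12. Of 16 membrane nucleation and elongation partners, 5 were higher and 1 lower with EPO and 6 higher and 2 lower without EPO, Nrbf2, a partner of the lipid kinase complex, being lower in both (-0.69 ± 0.08 and -0.93 ± 0.08).

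The remaining lists were those of the lysosome, of fusion and of mitochondria. Of 25 lysosomal enzymes and membrane proteins, 6 were higher and 7 lower with EPO and 6 higher and 9 lower without EPO. The calcium channel Mcoln1 was higher (1.80 ± 0.13 with EPO and 2.18 ± 0.13 without EPO), as was Ctsl, which encodes cathepsin L (1.0 ± 0.07 and 1.03 ± 0.07), and Man2b1, a mannosidase, was lower (-2.19 ± 0.13 and -2.62 ± 0.13). Of 17 genes of autophagosome-lysosome fusion, 3 were higher and 7 lower with EPO and 4 higher and 5 lower without EPO, including Vamp8, a membrane fusion protein (0.85 ± 0.10 and 0.93 ± 0.10), and Rab7, a late endosomal GTPase (-0.53 ± 0.12 and -0.66 ± 0.12). The 20 other mitophagy and mitochondrial dynamics genes had 5 higher and 6 lower with EPO and 7 higher and 6 lower without EPO, with Bcl2l13, a mitochondrial receptor for LC3, higher (0.93 ± 0.10 and 0.58 ± 0.10) and Opa1, the inner membrane fusion protein, lower (-1.15 ± 0.12 and -1.04 ± 0.12).

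EPO was followed by fewer calls in the same lists than were found between stages. The upstream regulators had the most in stage E2, with 3 of 39 higher and 7 lower, beside 3.19% and 2.42% of all genes. Slc38a9, a lysosomal amino acid sensor upstream of mTORC1, stood in stage E2 at -1.63, -1.95 and -1.87 with EPO and 0.12, 0.19 and -0.04 without EPO, and in stage E1 at -2.35, -0.98, -1.47 and -1.91 with EPO and 0.40, 1.17, 0.38 and 0.38 without EPO. It was lower with EPO on every array of both stages, with changes of -1.91 ± 0.11 in stage E2 (adjusted p = 0.00361) and -2.26 ± 0.33 in stage E1 (adjusted p = 0.0323). Also lower in stage E2 were Rraga, a Rag GTPase (-0.26 ± 0.02), and Akt1s1, a subunit of mTORC1 (-0.64 ± 0.07). The 3 higher upstream regulators and the remaining lower ones are not named here. For Foxo3, a forkhead factor of autophagy genes, the arrays of stage E2 stood at -0.03, 0.03 and -0.06 with EPO and 0.52, 0.53 and 0.56 without EPO. Both groups were tight, and Foxo3 was lower, at -0.56 ± 0.03 (adjusted p = 0.00275), while Tal1, of the same list, was higher (0.91 ± 0.10). The nucleation partners had 2 lower, Wdr45, a relative of WIPI1 (-0.67 ± 0.07), and Zfyve1, which marks the site of the cup (-0.73 ± 0.08). Lysosomal Mcoln1 (-0.51 ± 0.07) and Scarb2 (-0.48 ± 0.07) were lower and the mitochondrial phosphatase Pptc7 higher (1.11 ± 0.11), while the fusion, cargo receptor and vacuolar ATPase lists had no call in either direction. In stage E1 the upstream list had Sesn2 higher (2.25 ± 0.29) and Sesn3, another sestrin, lower (-1.78 ± 0.15) beside Slc38a9, and the mitochondrial list had Phb2, a prohibitin, higher (1.67 ± 0.19), beside 1.13% higher and 0.396% lower of all genes. Sesn3 was also the only gene of the lists with an interaction that passed, 1.88 ± 0.19 (adjusted p = 0.00175). It changed by 0.10 ± 0.03 in stage E2. The calls of these lists come from unpaired fits and were not examined with the replicate block or the other alternative settings.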

How the data were processed

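RNA of 14 cultures was measured on Affymetrix mouse expression arrays. Per the submitters' processing notes the authors normalised the arrays with GCRMA. The deposited values are on a log scale with 1 constant per probe set subtracted, as the values themselves show. They were read here as deposited log2 values, since base 2 is the usual output of that method, but the base is not given in the sources used here. Stage cannot be told apart from any difference in how the arrays of a stage were normalised. Array medians lay between -0.02 and 0.03. Arrays give no depth, so the precision rests on how many arrays there are.

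Samples were grouped by their labels. The values were used as deposited, after 64 control probe sets were left out, with limma 3.58.1 in R 4.3.3 (lmFit and eBayes, two-sided tests, Benjamini-Hochberg adjustment over 45037 probe sets, threshold 0.05). EPO was tested within each stage on that stage's arrays. The stage comparisons and the interaction came from 1 fit of 4 groups on all 14 arrays. None of these fits used the replicate numbers. A filter on low levels could not be applied to centred values. The platform annotation gave 1 gene for 34945 probe sets, several for 932 and none for 9160, and 34741 were matched to current symbols through Entrez identifiers. Values on every array are given for members with a probe set past the test and, where fewer than 6 passed, for those with the smallest p, and up to 4 genes of smallest p past the test are eligible per list. Further probe sets of a gene are given on every array where a result turned on them, a choice made after their values were seen. The members and lists were chosen with earlier results of these data known. The fit was also run on simulated arrays with independent noise and no pairing. Changes planted there were larger than several of those called here.

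Replicate numbers are shared by the groups of a stage. Same-numbered arrays of stage E1 deviated together (r = 0.195, 0.187, 0.173 and 0.152 across probe sets for replicates 1 to 4). Pairs with different numbers gave r from -0.236 to 0.203, the highest being E1 EPO replicate 3 with E1 replicate 4 without EPO. The numbers are treated as pairing the cultures of stage E1, though the labels do not say so. The alternatives were quantile normalization, array medians set to 0, the probe sets of largest SD, robust empirical Bayes, array weights and the replicate block. Others were probe sets averaged by gene, other sets of arrays in the fit, the methods' t-test and each array left out. That t-test was single-tailed in the direction seen, a looser threshold than that of the two-sided limma tests. Promoter windows were the 250 bases before each RefSeq start of GRCm38.p6, searched on both strands for the 4 motifs given with the results, and 33 of 40 members had a window.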

Additional observations from a re-analysis of the deposited data

Results flagged for a closer look

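The representative probe sets gave 78 groups of 4 arrays of stage E1. Of these, 10 held 1 array whose gap to the nearest other array, as a share of the group's range, was above Dixon's critical value. Chance alone gives about 1 in 20 for probe sets not chosen by their values. These were chosen by their SD over the same arrays, which can favour stray arrays, so that rate need not hold here. In stage E1 with EPO these were Ulk2 (replicate 1 at 0.31, the others -0.37 to -0.30, share 0.897), Atg2a (replicate 2 at -2.58, the others -1.17 to -1.08, share 0.941), Atg12 (replicate 4 at -1.04, the others -1.28 to -1.26, share 0.912), Fundc1 (replicate 2 at 1.17, the others 0.29 to 0.43, share 0.842) and Tfeb (replicate 3 at 0.17, the others -0.39 to -0.30, share 0.837). In stage E1 without EPO they were Ulk2 (replicate 1 at 0.14, the others -0.02 to 0.00, share 0.846), Map1lc3a (replicate 1 at -3.85, the others -2.19 to -2.06, share 0.932), Map1lc3b (replicate 1 at -0.14, the others -1.42 to -1.34, share 0.941), Gabarapl2 (replicate 2 at -1.12, the others -1.31 to -1.29, share 0.873) and Tfeb (replicate 3 at -0.13, the others 0.00 to 0.01, share 0.919). Groups of 3 arrays, those of stage E2, were not examined in this way.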

How the results depend on the processing

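Of 2418 values of 116 named results under the alternatives, 2239 kept their direction and side of the threshold, 158 no longer passed, 20 passed where they had not, and 1 reversed, the Nbr1 interaction on 1448343_a_at, at -0.078 under quantile normalization against 0.37 as deposited. The EPO counts depended most on the setting. In stage E1 the 1 lower probe set became 0 under quantile normalization and under the replicate block. It became 5 with array weights, 4 in the fit on all 14 arrays and 15 by the methods' t-test unadjusted, which is single-tailed. None higher became 1 with array weights and 2 by that t-test. Lower calls over all probe sets went from 162 to 141, 17, 762, 632 and 2370 in that order. Higher ones went from 362 to 1128 and 2824. In stage E2 the 7 lower became 16 among the 22518 probe sets of largest SD and 2 in the fit on all 14 arrays. They became 32 by the t-test unadjusted. They became 0 with the replicate block, whose numbers did not pair the arrays of stage E2 (r = -0.061, -0.057 and -0.016) or of the stages with each other. None higher became 1 among the probe sets of largest SD and 8 by the t-test. Over all probe sets the 935 lower became 1697, 388, 5639 and 153 in that order. The 1146 higher became 1877 and 4100. Taken by gene in stage E2, 3 lower by representative became 8 lower and none higher became 2 higher with probe sets averaged by gene. For the interaction, array weights gave 3 higher and 1 lower and quantile normalization 3 lower. Over all probe sets these were 388 higher, 481 lower and 769 lower, against 81 higher and 106 lower as deposited. Lower calls between stages without EPO were 5, against 9 with array weights and 2 with the replicate block. With EPO they were 6, against 12 and 3. Over all probe sets they were 4872, against 7962 and 3284, without EPO, and 5405, against 12964 and 3774, with EPO. Leaving out 1 array gave 0 to 1 higher and 0 to 1 lower with EPO in stage E1, 0 to 1 higher and 2 to 5 lower in stage E2, 0 to 1 in either direction for the interaction, 36 to 45 higher and 3 to 9 lower between stages with EPO, and 41 to 43 higher and 3 to 6 lower without EPO. Over all probe sets, leaving out 1 array gave 150 to 365 higher and 55 to 156 lower with EPO in stage E1. In stage E2 it gave 504 to 843 higher and 330 to 546 lower. Between stages it gave 3819 to 5049 higher and 3996 to 9682 lower with EPO. Without EPO these were 3659 to 4732 higher and 3456 to 5562 lower. The cause of these shifts was not tested. A filter on low levels was not run, since the values are centred.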
